A study of Homo sapiens with 24 samples.

Results

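The damaged state of human U87-T glioblastoma cells that lack DAXX was described by comparing the 3 etoposide treated libraries labelled DAXX_KO with the 3 etoposide treated WT libraries of the same part of the study, which are 6 of the 24 libraries of the series. The members were chosen by their labels alone. U87-T cells are the U87 line carrying a human TERT transgene, so both groups held that transgene, and the WT cells also carried an empty Cas9 vector. The DAXX_KO cells were a single clone that grew out after CRISPR editing of DAXX and had gained features of alternative lengthening of telomeres (ALT), so an effect of the missing protein, of the clone and of long culture cannot be told apart. The knockout libraries carry an ATRX knockout genotype tag but are titled as DAXX knockout, and the titles were followed. The etoposide dose and time used for these RNA libraries are not given in the sources used here. Another 6 libraries were untreated cells of the same genotypes, here called control cells, and 12 more libraries held ATRX_KO cells and their own WT cells.

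Etoposide traps topoisomerase II on cleaved DNA and leaves double-strand breaks, to which cells respond through the ATM and ATR kinases and through p53, a transcription factor that switches on genes of arrest, repair and death. DAXX is a chaperone that delivers the histone variant H3.3 to heterochromatin and telomeres together with ATRX, and it also resides in PML nuclear bodies and binds the p53 regulator MDM2. Loss of either partner is a hallmark of tumors that keep their telomeres by ALT.

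RNA was counted from the 3' end of polyadenylated transcripts, and levels are given as CPM, the counts of a gene scaled to a common library total. The 6 etoposide libraries held 7736867 to 9505233 counts, and a level of 0.311 to 0.405 CPM is what 3 counts would give. Within a group the log2 CPM of the libraries correlated at 0.978 to 0.985 across genes. The DAXX_KO libraries were more variable: their counts differed pairwise by a chi-square of 4.57 to 10.8 per degree of freedom, against 2.16 to 2.99 among WT libraries. No pair of libraries agreed within sampling noise. Of the defining markers of other cell types, PTPRC, CD14 and CD3E of immune cells, VWF, CDH5 and KDR of endothelium and CDH1, KRT5 and KRT14 of epithelium were too low to be tested. The glial markers GFAP, S100B, OLIG1, OLIG2 and SOX10 were too low as well, while mesenchymal genes such as VIM and CD44 were abundant. Summed over the 18 neural and glial markers in the table, the level was 416 to 436 CPM in WT and 380.4 to 430.2 CPM in DAXX_KO. Summed over the 8 immune markers it was 41.5 to 42.9 and 36.5 to 40.4 CPM, and over the 6 endothelial markers 1.02 to 1.20 and 2.00 to 3.32 CPM. The 10 epithelial markers, led by the keratin genes KRT8 and KRT18, summed to 31.4 to 36.6 CPM in WT and 10.6 to 12.8 CPM in DAXX_KO. The part of these shifts in the results below was not tested.

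The targeted gene was lower but not absent. Here log2FC is the log2 fold change of DAXX_KO over WT, and a pair of levels in parentheses is the mean in WT and then in DAXX_KO. DAXX mRNA stood at 20.8, 21.5 and 22.7 CPM in WT and at 7.31, 11.2 and 11.1 CPM in DAXX_KO. Every knockout library lay below every WT library (log2FC -1.13 ± 0.15 (SE), adjusted p = 2.30e-06). In control cells the difference was larger, with a log2 fold change of -2.53, and the change between the conditions passed its own test (interaction 1.41, adjusted p = 0.000195). The 3' tags counted here need not lie in the edited part of the gene, so they do not report on the protein. ATRX, the partner of DAXX, stood at 160.4, 177 and 181 CPM in WT and 246, 257 and 242 CPM in DAXX_KO, higher in all 3 knockout libraries (log2FC 0.53 ± 0.07 (SE), adjusted p = 3.60e-06). The block of about 60 neighboring tested genes that holds it on the X chromosome had a median log2FC of 0.54, as large as that of ATRX.

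Of 15247 genes tested, 8087 (53%) differed between etoposide treated DAXX_KO and WT cells at an adjusted p below 0.05, with 4252 (27.9%) higher and 3835 (25.2%) lower in the knockout. At least 2-fold differences were reached by 1424 higher genes (9.34%) and 1074 lower genes (7.04%), and at least 4-fold differences by 355 and 340. Genes are called at that threshold with edgeR throughout. The median log2 fold change over all genes was 0.01 and the median size 0.44. For 8903 genes (58.4%) the libraries of both genotypes did not overlap, with the knockout above in 30.4% and below in 28% of all genes, and the counts within gene groups are to be read against these shares. In control cells 53.4% of the genes differed. Most differences with etoposide were present there too, as compared in libraries that the 2 contrasts do not share: 3005 of the 4252 higher genes were also called higher in control cells (70.7% of them, and 73.7% of the control set) and 2717 of the 3835 lower genes were also lower there (70.8% and 66.9%). A further 141 genes were higher with etoposide but lower in control cells and 112 were lower with etoposide but higher in control cells, each called in both and with the change between conditions called too. The effect of the knockout differed between the conditions for 2160 genes (14.2%), of which 1277 (8.38%) were relatively higher with etoposide and 883 (5.79%) relatively lower. Across the 15247 genes the effects in both conditions had a Spearman correlation of 0.719, a description over genes that are not independent.

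The largest differences were genes nearly silent in one genotype. PXDN, which encodes a peroxidase that crosslinks collagen IV, stood at 68.9, 73.1 and 73.2 CPM in WT and 0.122, 0.829 and 0.448 CPM in DAXX_KO (log2FC -7.17 ± 0.21 (SE), adjusted p = 5.08e-15). SERINC2 stood at 66.0, 70.0 and 67.8 CPM against 1.22, 0.311 and 0.448 CPM (log2FC -6.71 ± 0.20 (SE), adjusted p = 6.00e-15). The neuronal RNA-binding gene ELAVL4 stood at 44.9, 53.6 and 43.1 CPM against 0, 0.207 and 0.784 CPM (log2FC -7.07 ± 0.30 (SE), adjusted p = 9.16e-13). All 3 were well expressed in every WT library and at or near the 3-count floor in every knockout library. The ion channel gene PIEZO2 showed the same pattern, at 26.2, 20.7 and 26.6 against 0, 0.621 and 0.224 CPM. Knockout levels were near 0, and the size moved when 1 knockout library was left out. The log2 fold change was -7.87 for PXDN without DAXX_KO library 2 and -7.43 for SERINC2 without library 1. Without DAXX_KO library 3 for ELAVL4 and library 2 for PIEZO2, the others held at most 2 counts each, and relative to 3 counts per library WT was at least 140-fold and 69.9-fold higher. Where every knockout library had at most 3 counts only a bound can be given. Relative to that floor WT was at least 196-fold higher for the pseudogene CLEC4OP, at least 69.2-fold higher for GCSAML, and at least 44.5-fold higher for LRATD1. It was at least 43.7-fold higher for SLC25A4 (a mitochondrial ADP/ATP carrier) and at least 31.2-fold higher for the GABA receptor gene GABRA2. MAGED4B, whose near-identical copy MAGED4 can share its reads, was at least 63.1-fold higher in WT.

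In the other direction, LINC00520, a long noncoding RNA, stood at 3.76, 4.52 and 3.51 CPM in WT and 105, 109 and 108 CPM in DAXX_KO (log2FC 4.75 ± 0.15 (SE), adjusted p = 1.11e-14). TMTC1, an endoplasmic reticulum mannosyltransferase gene, stood at 1.38, 0.595 and 0.675 CPM against 32.5, 32.7 and 32.2 CPM (log2FC 5.18 ± 0.26 (SE), adjusted p = 8.36e-12). EDIL3, which encodes a secreted integrin ligand, stood at 0.753, 1.43 and 0.945 CPM against 30.1, 30.3 and 26.2 CPM (log2FC 4.76 ± 0.20 (SE), adjusted p = 9.82e-13). The knockout libraries agreed closely with each other for all 3 genes. LHX3, a homeobox gene of pituitary and motor neuron development, was at the floor in WT and at 20.3, 19.5 and 25.4 CPM in DAXX_KO, at least 57.3-fold higher, and the noncoding gene LINC01050 was at least 36.5-fold higher. GPC6, a cell surface proteoglycan gene, stood at 0.125, 0.595 and 0.405 CPM against 13.8, 15.95 and 8.51 CPM, and GASK1B, OLFML3 and ZNF528-AS1 had log2 fold changes of 4.97, 4.69 and 4.67. RP11-312O7.2, annotated as an antisense gene, was listed at 0 in all WT libraries and at 19.7, 15.6 and 17.5 CPM in DAXX_KO. It was also at 0 in control cells of both genotypes, and a split of reads between overlapping gene models in the authors' counting was not tested.

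In absolute amounts, the largest gains were ferritin heavy chain FTH1, an iron store (5664 to 10472 CPM on average, log2FC 0.89 ± 0.04 (SE), adjusted p = 8.11e-12), the tetraspanin CD63 (2970.5 to 5669 CPM), the cyclophilin PPIA (2829 to 5031 CPM), the stress cytokine GDF15 (4270.3 to 5839 CPM) and the small GTPase RAC1 (810.3 to 1905 CPM). The largest losses were BCYRN1, LGALS1 (galectin-1, 5171 to 2768 CPM, log2FC -0.90 ± 0.07 (SE), adjusted p = 2.51e-09), the noncoding host gene SNHG25 (4734 to 1882 CPM) and the glycolytic enzymes GAPDH (8571 to 6885 CPM) and ENO1 (5677 to 4117 CPM). BCYRN1, a short RNA polymerase III transcript, took 11.6% to 12.1% of all counts in WT and 8.44% to 10.1% in DAXX_KO.

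Genes that p53 switches on were mostly lower in damaged DAXX_KO cells. Of 47 p53 targets listed, 44 were tested: 4 were called higher, 30 lower and 10 neither, against 27.9% and 25.2% of all genes, and their median log2 fold change was -0.53 against 0.01. In 32 of the 44 every knockout library lay below every WT library, against 28% of all genes. The list was written with earlier results of these data known. It includes genes that the study's text names from these libraries, such as GADD45A and TNFRSF10A, so its counts are no independent evidence. In bulk RNA, fewer cells that express a gene and less of its RNA in each cell cannot be told apart, here and throughout. In control cells the same list had 17 higher and 11 lower members and a median of 0.09, against 26.7% and 26.6% of all genes. The effect of the knockout was relatively lower with etoposide for 24 members and relatively higher for 2, against 5.79% and 8.38% of all genes. Taken relative to the median of the chromosomal block of about 60 tested genes around each member, the median of the list was -0.51.

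Among cell cycle arrest genes the fall was uneven. GADD45A, a growth arrest and repair gene, stood at 1012, 982 and 1005 CPM in WT and 230.4, 302 and 219 CPM in DAXX_KO. Every knockout library lay far below every WT library (log2FC -1.995 ± 0.10 (SE), adjusted p = 6.00e-12). CDKN1A, which encodes the p21 inhibitor of cyclin-dependent kinases, stood at 5735, 5644 and 5484 CPM against 5775, 5272 and 6075 CPM and the groups overlapped (log2FC 0.02 ± 0.06 (SE), adjusted p = 0.772). Its untreated level was higher in the knockout (log2 fold change 0.49), and the change between conditions was called (-0.47, adjusted p = 0.000856). The antiproliferative gene BTG2 stood at 54.0, 44.9 and 42.8 CPM against 12.7, 21.3 and 10.1 CPM (log2FC -1.67 ± 0.19 (SE), adjusted p = 3.85e-07). The polo-like kinase gene PLK3 was lower (80.0 to 35.2 CPM, log2FC -1.18 ± 0.10 (SE), adjusted p = 8.88e-09). GDF15 was an exception, at 4172, 4298 and 4341 CPM in WT and 5760.1, 5905 and 5853 CPM in DAXX_KO (log2FC 0.45 ± 0.05 (SE), adjusted p = 5.62e-07), yet its excess in control cells was larger (log2 fold change 2.03).

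All 6 tested feedback genes of the pathway were called. MDM2, the ubiquitin ligase that destroys p53, stood at 867, 866 and 861 CPM in WT and 566, 539.9 and 505 CPM in DAXX_KO (log2FC -0.69 ± 0.07 (SE), adjusted p = 1.55e-07), while in control cells its log2 fold change was -0.02. The phosphatase gene PPM1D (49.8 to 20.9 CPM, log2FC -1.26 ± 0.10 (SE), adjusted p = 6.17e-09), TP53INP1, ZMAT3 and CCNG1 were lower too, though CCNG1 was not called without DAXX_KO library 3 (-0.22), and TRIM22 was higher (56.0 to 73.3 CPM, log2FC 0.39 ± 0.10 (SE), adjusted p = 0.00239). TP53INP1, an autophagy and stress gene, turned direction: it was lower with etoposide (log2 fold change -0.70) and higher in control cells (0.96).

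Of 14 tested genes of apoptosis and death receptors 0 were higher and 11 lower by edgeR. The receptor gene FAS stood at 52.8, 50.9 and 52.7 CPM in WT and 24.9, 23.9 and 21.8 CPM in DAXX_KO (log2FC -1.15 ± 0.10 (SE), adjusted p = 1.11e-08). TNFRSF10A, a receptor for the ligand TRAIL, stood at 10.2, 11.9 and 9.86 CPM against 2.07, 1.86 and 2.58 CPM (log2FC -2.29 ± 0.27 (SE), adjusted p = 7.49e-07). Both groups were separate for both receptors, and TNFRSF10A had been higher in the knockout in control cells (log2 fold change 1.20). EDA2R (88.6 to 33.8 CPM), TP53I3 (239 to 97.1 CPM) and the BH3-only gene PMAIP1 (223 to 119 CPM) had log2 fold changes of -1.39, -1.30 and -0.91. BBC3, which encodes PUMA, was not called (157 to 169.9 CPM, log2FC 0.11 ± 0.08 (SE), adjusted p = 0.228), nor was BAX (20.8 to 22.8 CPM, adjusted p = 0.451). Among genes of metabolism, repair and stress, the ferredoxin reductase gene FDXR stood at 636, 707 and 634 CPM in WT and 159.7, 138 and 195 CPM in DAXX_KO (log2FC -2.01 ± 0.10 (SE), adjusted p = 4.32e-12). The fatty acid hydroxylase gene CYP4F3 stood at 15.1, 14.0 and 15.1 CPM against 1.22, 2.59 and 2.02 CPM (log2FC -2.90 ± 0.31 (SE), adjusted p = 2.21e-07). PARD6G, a cell polarity gene, stood at 28.6, 28.9 and 28.2 against 29.8, 27.0 and 31.5 CPM and was not called (adjusted p = 0.74). CYP4F3, PARD6G, GADD45A, TNFRSF10A, TP53INP1 and CDKN1A are named in the study's own text, so they are not independent choices. By RT-qPCR, another measure, the study reported GADD45A, CYP4F3 and PARD6G (written there as PARDG6) as changed in both knockouts. It found no significant effect on CDKN1A in DAXX_KO. The damage sensor of excision repair XPC (275 to 180.0 CPM, log2FC -0.61 ± 0.08 (SE), adjusted p = 5.34e-06) and the mTORC1 inhibitor SESN2 (800.0 to 521 CPM, log2FC -0.62 ± 0.08 (SE), adjusted p = 1.19e-06) were lower. SESN1, a relative of SESN2, was not called (adjusted p = 0.879). The ribonucleotide reductase subunit RRM2B was higher (76.0 to 132 CPM, log2FC 0.80 ± 0.09 (SE), adjusted p = 3.28e-07).

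**Figure D1:**
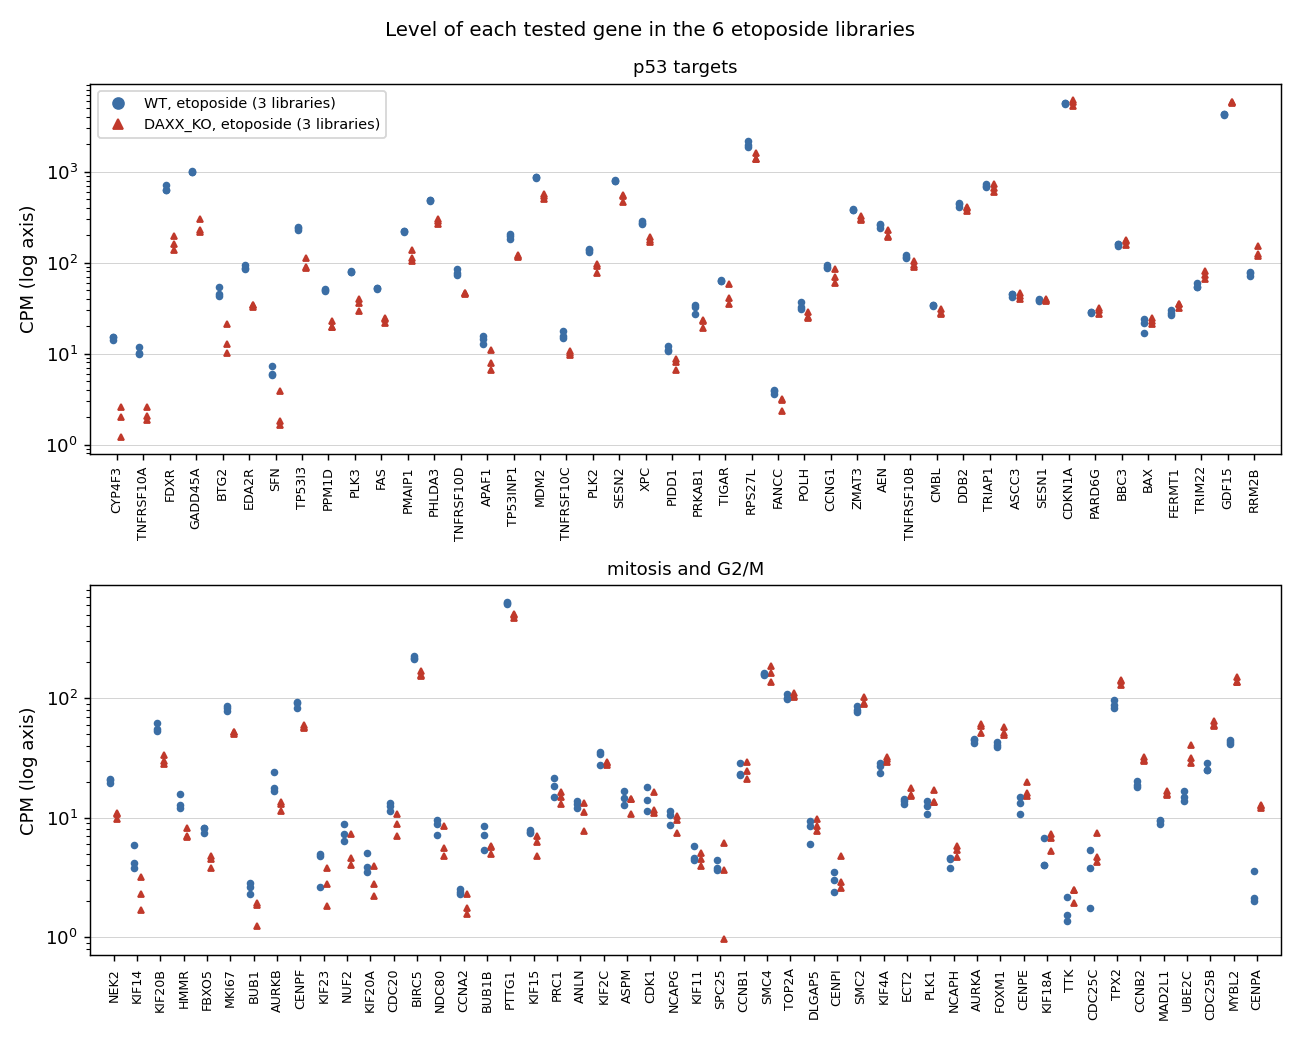
Level of each tested gene of the p53 list (top) and of the mitosis list (bottom) in the 6 etoposide libraries, in CPM on a log axis, with genes ordered by log2 fold change from the lowest to the highest. Circles are the 3 WT and triangles the 3 DAXX_KO libraries; 32 of 44 p53 targets have all triangles below all circles, while mitosis genes fall on both sides.

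Genes were also grouped by how WT cells of the ATRX series, which share no library with this comparison, responded to etoposide. Of 329 genes that rose at least 8-fold in those cells, 98 (29.8%) were higher and 121 (36.8%) lower in damaged DAXX_KO cells, with a median log2 fold change of -0.06. Over all genes these shares were 27.9% and 25.2%. In control cells 29.2% of the 329 were higher and 9.42% lower (median 0.51), against 26.7% and 26.6% of all genes. The change between conditions was relatively lower for 66 of the 329 and relatively higher for 8, against 5.79% and 8.38% of all genes. The groups below are to be read against the same shares. Genes that rose 4-fold to 8-fold followed the same order, with 95 of 398 relatively lower with etoposide and 9 relatively higher. Among 1617 genes that fell 2-fold to 4-fold, 574 (35.5%) were higher and 356 (22%) lower in damaged DAXX_KO cells, and in control cells 22.4% and 41.2%. Of these genes 404 were relatively higher with etoposide and 13 relatively lower. Genes that fell 8-fold or more were few (68), with 8 higher and 21 lower with etoposide.

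**Figure D2:**
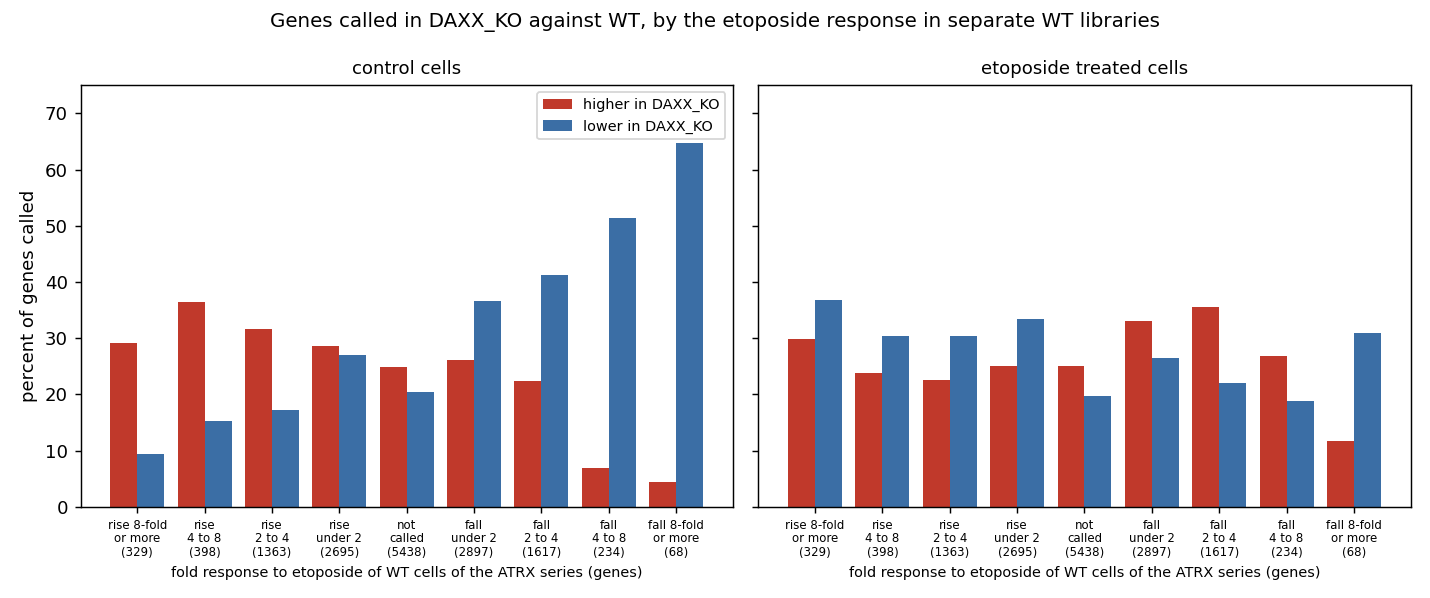
Percent of genes called higher or lower in DAXX_KO than WT in control cells (left) and in etoposide treated cells (right), for genes grouped by their fold response to etoposide in WT cells of the ATRX series, with the number of genes in brackets. Genes that rose 8-fold or more there were called lower for 9.42% in control cells and 36.8% with etoposide, and genes that fell 2-fold to 4-fold were called lower for 41.2% and 22%.

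Mitosis genes, which etoposide lowered in both genotypes, were called in each direction about as often as all genes. Of 50 tested members 11 were called higher, 14 lower and 25 neither, against 27.9% higher and 25.2% lower of all genes. Their median log2 fold change was -0.14. In 14 the knockout libraries lay wholly above WT and in 13 wholly below, against 30.4% and 28% of all genes. In control cells 1 was higher and 34 were lower (median -0.42), against 26.7% and 26.6% of all genes. The interaction was higher for 23 members and lower for 0 at an adjusted p below 0.05 by edgeR, against 8.38% and 5.79% of all genes. The median response of the list to etoposide was -3.42 in WT (where 60.2% of all genes responded, 29.6% by rising) and -3.07 in DAXX_KO on the log2 scale. Taken relative to the median of the chromosomal block of each gene, the median log2FC of the 50 genes was 0.000375.

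CENPA, the histone H3 variant that marks centromeres, stood at 2.13, 3.57 and 2.03 CPM in WT and 12.2, 12.8 and 12.5 CPM in DAXX_KO (log2FC 2.26 ± 0.20 (SE), adjusted p = 1.57e-08). In control cells its log2FC was -0.06. UBE2C, a ubiquitin-conjugating enzyme of mitotic exit, stood at 14.9, 13.7 and 16.6 CPM against 31.4, 40.3 and 28.6 CPM (log2FC 1.16 ± 0.13 (SE), adjusted p = 2.58e-07). The phosphatase gene CDC25B, which opens mitosis by activating cyclin-dependent kinase, stood at 25.1, 28.6 and 25.3 CPM against 59.3, 59.1 and 64.5 CPM (log2FC 1.21 ± 0.09 (SE), adjusted p = 1.08e-09). For all 3 genes the groups were separate, and all 3 interactions were called, at 2.33, 1.44 and 1.07. MYBL2, a transcription factor of late cell cycle genes, stood at 41.5, 43.2 and 44.6 CPM against 152, 138 and 136 CPM (log2FC 1.72 ± 0.09 (SE), adjusted p = 2.62e-11). The spindle assembly factor TPX2 was higher by less (89.0 to 137 CPM, log2FC 0.62 ± 0.07 (SE), adjusted p = 6.03e-07). The cyclin gene CCNB2 (19.1 to 31.0 CPM), the checkpoint gene MAD2L1 (9.25 to 16.02 CPM), FOXM1 (40.9 to 52.6 CPM) and AURKA (44.3 to 56.8 CPM) rose by smaller amounts, FOXM1 not being called when all 24 libraries were fitted together. The lower members included the centrosome kinase NEK2 (20.4 to 10.5 CPM, log2FC -0.96 ± 0.10 (SE), adjusted p = 1.48e-07), the kinesins KIF14 and KIF20B (log2FC -0.94 and -0.89), the proliferation marker MKI67 (82.7 to 51.6 CPM, log2FC -0.68 ± 0.08 (SE), adjusted p = 7.10e-07), CENPF (89.0 to 57.9 CPM, log2FC -0.62) and the survivin gene BIRC5 (218 to 160.01 CPM, log2FC -0.45). The chromosomal blocks of NEK2 and CENPF, of which they are both part, and of BIRC5 had medians of -0.68 and -0.45. Several of the higher genes lay on chromosome 20, in blocks with raised medians. These were 0.49 for MYBL2 and UBE2C, 0.34 for AURKA (log2FC 0.36), 0.20 for CDC25B and 0.16 for TPX2. The blocks of CENPA and CCNB2 had medians of -0.16 and -0.15. CCNB1 (24.9 to 24.9 CPM, adjusted p = 0.999), CDK1 (14.6 to 12.95 CPM, adjusted p = 0.445) and PLK1 (12.3 to 14.7 CPM, adjusted p = 0.0857) were not called.

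Late cell cycle genes are known to share a promoter element, the cell cycle genes homology region, whose common form reads TTTGAA, often together with CCAAT boxes. In RefSeq promoters of the GRCh38.p14 build, searched on both strands over the 250 bases before the annotated start, TTTGAA was present in 22 of the 44 mitosis genes with an entry (50%) and in 13.6% of all 27305 promoters. CCAAT was present in 65.9% and 33%. Both occurred in 17 of the 44 (38.6%) and in 4.85% of all promoters. TTTGAA was found in 3 of 7 higher, 4 of 13 lower and 15 of 24 uncalled mitosis genes with a promoter entry. The 160 bases before the start of 4 of these genes are shown because they share both motifs and yet differ in direction, CENPA and CCNB2 being higher, TOP2A uncalled and MKI67 lower. The capitals mark TTTGAA and CCAAT in either orientation, and in MKI67 one pair overlaps. The windows are chr2:26785896-26786055 on the plus strand, chr15:59104986-59105145 on the plus strand, chr17:40417897-40418056 on the minus strand and chr10:128126424-128126583 on the minus strand, each written 5' to 3' along its gene.
CENPA: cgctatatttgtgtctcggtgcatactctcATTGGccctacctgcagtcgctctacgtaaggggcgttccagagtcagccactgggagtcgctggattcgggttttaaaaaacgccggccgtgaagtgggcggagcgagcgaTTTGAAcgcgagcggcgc
CCNB2: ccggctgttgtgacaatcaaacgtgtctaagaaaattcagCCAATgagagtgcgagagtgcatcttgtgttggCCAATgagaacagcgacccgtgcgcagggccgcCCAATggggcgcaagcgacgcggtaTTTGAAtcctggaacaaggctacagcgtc
TOP2A: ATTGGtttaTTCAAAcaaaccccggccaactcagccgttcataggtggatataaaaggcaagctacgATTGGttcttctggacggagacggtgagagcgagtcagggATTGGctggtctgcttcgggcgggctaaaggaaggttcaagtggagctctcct
MKI67: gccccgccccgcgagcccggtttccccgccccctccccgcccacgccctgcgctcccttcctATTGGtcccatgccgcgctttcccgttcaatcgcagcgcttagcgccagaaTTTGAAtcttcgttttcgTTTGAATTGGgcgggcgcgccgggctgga

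TTTGAA began 18 bases before the start in CENPA, 29 in CCNB2, 151 in TOP2A (in the reverse orientation) and 47 and 29 in MKI67. Of the 32 tested p53 targets with a promoter entry, 1 held a full p53 site (no spacer, cores intact and at most 2 mismatches to the consensus) in this window, against 0.231% of all promoters. It was AEN, a nuclease gene that p53 induces, which was lower in DAXX_KO (255 to 207 CPM, log2FC -0.30 ± 0.07 (SE), adjusted p = 0.00212). Its 100 bases before the start, chr15:88621240-88621339 on the plus strand, are shown with the 20-base match in capitals, which begins 34 bases before the start. For the other 31 genes this says only that no such letters stand in the window.
AEN: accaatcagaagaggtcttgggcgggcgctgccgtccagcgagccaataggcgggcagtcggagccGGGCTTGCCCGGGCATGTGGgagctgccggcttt

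**Figure D3:**
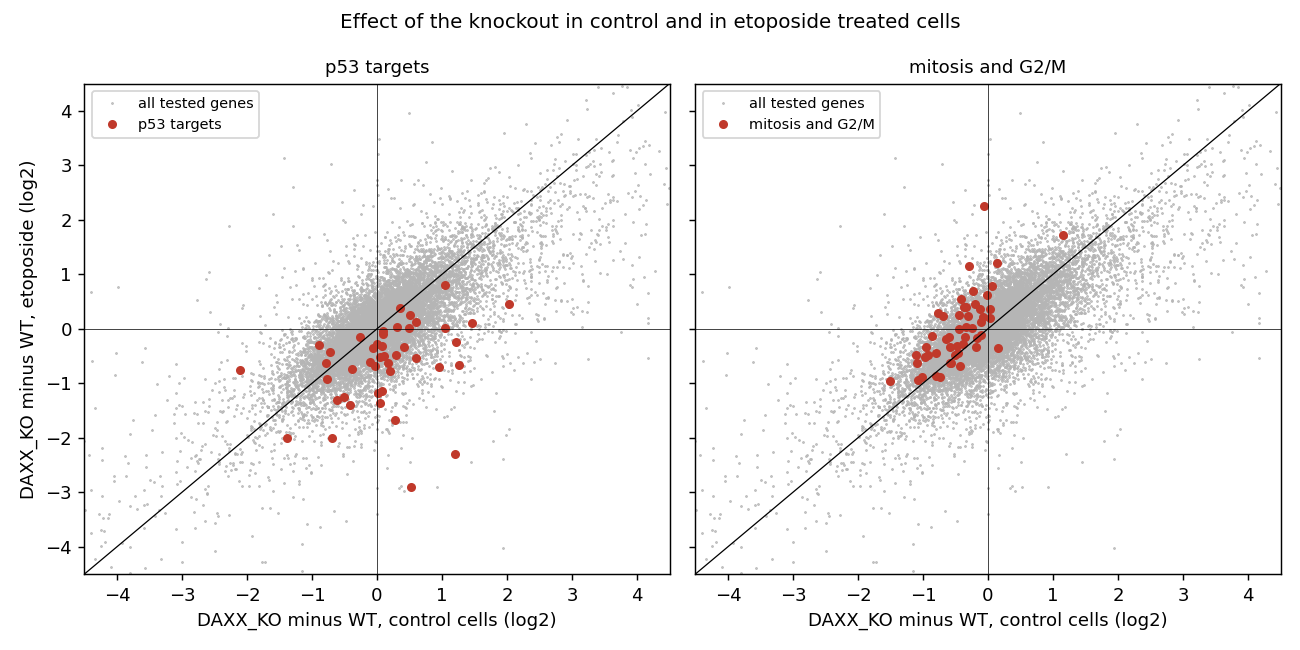
Log2 fold change of DAXX_KO minus WT in control cells (horizontal) and in etoposide treated cells (vertical) for all 15247 tested genes (gray) and the p53 targets (left) or mitosis genes (right) in red, with the line of equal effects; both axes are cut at 4.5. Most red p53 points lie below the line and most red mitosis points above it, as the medians of -0.53 against 0.09 and -0.14 against -0.42 show.

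Many DNA replication genes were lower. Of 45 tested members 6 were higher, 25 lower and 14 not called, with a median log2 fold change of -0.46, close to the -0.52 of control cells where 4 were higher and 31 lower. Of 11 origin licensing genes 9 were lower and 1 higher. CDC6, which loads the replicative helicase, stood at 23.8, 28.6 and 24.6 CPM in WT and 8.28, 7.56 and 6.72 CPM in DAXX_KO (log2FC -1.77 ± 0.12 (SE), adjusted p = 3.47e-10). All 6 called fork genes were lower, led by the sliding clamp gene PCNA, itself known to respond to p53 (121 to 47.8 CPM, log2FC -1.34 ± 0.11 (SE), adjusted p = 3.77e-09), while 11 of the 17 fork genes were not called. Among nucleotide enzymes, RRM2 (351 to 149 CPM, log2FC -1.23 ± 0.06 (SE), adjusted p = 6.20e-12) and the thymidine kinase TK1 (239.8 to 102 CPM, log2FC -1.23 ± 0.09 (SE), adjusted p = 1.89e-09) were lower. RRM1 was higher (92.5 to 139 CPM, log2FC 0.59 ± 0.06 (SE), adjusted p = 3.01e-07). The regulators moved both ways. E2F1 stood at 54.7, 54.6 and 52.5 CPM against 122, 114 and 135 CPM (log2FC 1.20 ± 0.08 (SE), adjusted p = 3.72e-10). The G1 kinase gene CDK4 stood at 162, 187 and 187 CPM against 395, 377 and 374 CPM (log2FC 1.10 ± 0.06 (SE), adjusted p = 4.73e-11), both with separate groups. CDK6, its close relative, stood at 68.4, 56.5 and 64.6 CPM against 21.2, 20.3 and 17.5 CPM (log2FC -1.68 ± 0.09 (SE), adjusted p = 2.87e-11). The ubiquitin ligase adaptor DTL was lower too (51.4 to 16.05 CPM, log2FC -1.68 ± 0.11 (SE), adjusted p = 1.95e-10). Of the other inhibitors of these kinases, CDKN2A, CDKN2B, CDKN2C and CDKN1C were too low to test, CDKN1B was not called (adjusted p = 0.155) and CDKN2D was higher (17.0 to 32.8 CPM, log2FC 0.95 ± 0.12 (SE), adjusted p = 1.79e-06).

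Most genes of damage signaling, recombination and end joining were not called. Of 21 signaling genes 4 were higher and 4 lower, at a median log2 fold change of 0.01. The kinase genes ATM (17.3 to 19.5 CPM, adjusted p = 0.344), ATR (27.5 to 29.5 CPM, adjusted p = 0.429) and PRKDC (89.6 to 94.8 CPM, adjusted p = 0.482) were not called. Nor were CHEK1 (14.6 to 17.6 CPM, adjusted p = 0.0933) and CHEK2 (18.2 to 18.3 CPM, adjusted p = 0.965). WEE1, which restrains entry into mitosis, was higher (2.76 to 4.97 CPM, log2FC 0.84 ± 0.26 (SE), adjusted p = 0.01), but not without WT library 3 (log2FC 0.67). RAD50, of the complex that senses breaks, was lower (299 to 193 CPM, log2FC -0.63 ± 0.08 (SE), adjusted p = 1.46e-06). Its partner MRE11 was higher (15.9 to 20.8 CPM, log2FC 0.38 ± 0.14 (SE), adjusted p = 0.0239), but it was not called by DESeq2, without WT library 2 (0.29) or without DAXX_KO library 1 (0.27). Of 35 homologous recombination and Fanconi genes 3 were higher, 10 lower and 22 not called (median -0.21). RAD51C, a recombination mediator gene, stood at 50.6, 55.6 and 46.9 CPM against 19.98, 19.2 and 15.1 CPM (log2FC -1.498 ± 0.17 (SE), adjusted p = 4.66e-07). BRCA1 (53.1 to 33.1 CPM), BRIP1 (8.83 to 4.03 CPM) and the nuclease subunit EME1 (5.96 to 2.89 CPM) were lower as well. The nuclease genes EXO1 and RBBP8, which resect broken ends, were higher (log2FC 0.68 and 0.61). Of 16 end joining genes 2 were higher and 3 lower, the lower ones being both Ku subunits, XRCC5 (179 to 149.9 CPM, not called without DAXX_KO library 1, log2FC -0.20) and XRCC6 (249.6 to 149 CPM, log2FC -0.75 ± 0.07 (SE), adjusted p = 2.52e-08), and the ligase partner XRCC4 (19.2 to 10.7 CPM). The blocks around XRCC5 and XRCC6 had medians of -0.19 and -0.74, close to the log2FC of each gene. Of the targets of the drug itself, TOP2A stood at 100.4, 109 and 99.1 CPM against 105, 102 and 110.3 CPM and the groups overlapped (log2FC 0.04 ± 0.06 (SE), adjusted p = 0.581). TOP2B was slightly higher (38.9 to 49.1 CPM, log2FC 0.34 ± 0.09 (SE), adjusted p = 0.00501). The adduct repair gene TDP2 was not called (8.52 to 6.75 CPM, adjusted p = 0.222). Of the drug pumps, ABCC1 was lower (9.79 to 5.59 CPM, adjusted p = 0.0204) but not without WT library 3 (log2FC -0.71), DAXX_KO library 1 (-0.69) or DAXX_KO library 3 (-0.43), and without DAXX_KO library 2 its log2 fold change was -1.40. ABCG2 was higher from a low level (0.541 to 5.39 CPM, log2FC 3.26 ± 0.39 (SE), adjusted p = 8.95e-07).

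The histone cargo of DAXX was lower. H3-3B, 1 of the 2 genes that encode H3.3, stood at 1643, 1638 and 1592 CPM in WT and 719.6, 732 and 723 CPM in DAXX_KO (log2FC -1.16 ± 0.05 (SE), adjusted p = 1.35e-12). H3-3A, whose many pseudogenes can share reads, was lower (778 to 641 CPM, log2FC -0.28 ± 0.06 (SE), adjusted p = 0.000539). Both were lower in control cells too, with log2 fold changes of -1.38 and -0.60. The block of H3-3B on chromosome 17 had a median of -0.60 with etoposide. Of the HIRA pathway, which deposits H3.3 in active chromatin, UBN1 (79.7 to 131 CPM) and CABIN1 (27.5 to 45.5 CPM) were higher, ASF1A (12.2 to 5.10 CPM) and ASF1B (33.2 to 23.5 CPM) lower, and HIRA itself was not called (adjusted p = 0.296). PML, the scaffold of the nuclear bodies, was lower (94.0 to 57.4 CPM, log2FC -0.71 ± 0.07 (SE), adjusted p = 1.77e-07). The SUMO modifiers, which bind DAXX, diverged, with SUMO3 at 140.3, 148 and 143 CPM against 317, 287 and 323 CPM (log2FC 1.10 ± 0.06 (SE), adjusted p = 4.76e-11) and SUMO2 (399.7 to 275 CPM, log2FC -0.54, block median -0.60) lower. Over the 23 genes of this list 4 were higher and 11 lower. Of 21 genes of H3K9 methylation, HP1 and DNA methylation 7 were higher and 6 lower. CBX3, an HP1 protein gene, stood at 175, 186 and 179.9 CPM against 355, 419.8 and 477 CPM (log2FC 1.21 ± 0.08 (SE), adjusted p = 5.04e-10) with a control-state log2 fold change of 0.04, and the corepressor TRIM28 was lower (198 to 124 CPM, log2FC -0.67 ± 0.11 (SE), adjusted p = 2.96e-05). Of 17 genes of shelterin and telomerase 6 were higher and 5 lower. The shelterin subunit TERF2 was lower (91.6 to 67.0 CPM, log2FC -0.45 ± 0.10 (SE), adjusted p = 0.000539), POT1 higher (11.1 to 16.2 CPM) and the telomerase RNA TERC higher (6.05 to 18.2 CPM, log2FC 1.59 ± 0.21 (SE), adjusted p = 3.69e-06). TERT, of which both genotypes carried a transgene, was called lower (7.40 to 4.11 CPM, log2FC -0.85 ± 0.28 (SE), adjusted p = 0.0136), but not without WT library 2 (log2FC -0.65), DAXX_KO library 1 (-0.76) or DAXX_KO library 2 (-0.74).

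Inflammatory genes rose in part. Of 43 cytokines and NF-kB targets only 29 were tested, 15 being higher, 5 lower and 9 not called (median log2 fold change 0.39), against 13 higher and 9 lower in control cells. With only genes at 10 or more counts in every library, 9 were higher and 2 lower. PTGES and PTGS2, enzymes of prostaglandin E2 synthesis, were both higher. PTGES stood at 9.41, 9.64 and 9.45 CPM in WT and 109.6, 95.2 and 113 CPM in DAXX_KO (log2FC 3.47 ± 0.17 (SE), adjusted p = 5.39e-12). PTGS2 stood at 6.902, 6.78 and 6.75 CPM against 29.2, 29.9 and 22.1 CPM (log2FC 1.99 ± 0.18 (SE), adjusted p = 3.38e-08). In control cells PTGES was also higher (log2 fold change 5.05) while PTGS2 was not called (-0.53), and the interaction of PTGS2 was called (2.52, adjusted p = 0.000625). The neutrophil chemokine CXCL8 stood at 1.76, 1.90 and 1.76 CPM against 7.43, 8.49 and 7.50 CPM (log2FC 2.10 ± 0.32 (SE), adjusted p = 1.49e-05) and was lower than WT in control cells (-1.60), where every knockout library held at most 3 counts. IL11 showed the same turn (61.3 to 118 CPM, log2 fold change 0.94 with etoposide and -0.89 in control cells). The macrophage factor CSF1 (17.8 to 50.4 CPM, log2FC 1.502 ± 0.16 (SE), adjusted p = 1.49e-07), the chemokine CCL26 (4.15 to 14.6 CPM) and the NF-kB subunit RELB (10.5 to 28.2 CPM, log2FC 1.42 ± 0.14 (SE), adjusted p = 1.12e-07) were higher. CCL2 (4.22 to 0.578 CPM, log2FC -2.79 ± 0.35 (SE), adjusted p = 1.81e-06), LIF (3.03 to 0.874 CPM, log2FC -1.74 ± 0.47 (SE), adjusted p = 0.0038, or -2.48 without DAXX_KO library 2), the apoptosis inhibitor BIRC3 and the EGFR ligands EREG (163 to 60.1 CPM) and HBEGF (99.8 to 59.95 CPM) were lower. IL6 was not called (1.14 to 0.967 CPM, adjusted p = 0.786).

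Several genes of antigen presentation were higher. Of 19 MHC class I genes 10 were higher, 2 lower and 7 not called, at a median log2 fold change of 0.41, much as in control cells (0.38, with 11 higher). TAPBP, tapasin of the peptide loading complex, stood at 58.7, 56.9 and 49.8 CPM in WT and 140.3, 136 and 173 CPM in DAXX_KO (log2FC 1.44 ± 0.10 (SE), adjusted p = 9.21e-10). The heavy chains HLA-B (209 to 378 CPM) and HLA-E (145 to 275 CPM, log2FC 0.92 ± 0.07 (SE), adjusted p = 1.69e-09) were higher, although reads of these near-identical genes may be split between them. The light chain B2M was not called (1382 to 1297 CPM, adjusted p = 0.232). The transcriptional activator NLRC5 was higher (5.39 to 13.01 CPM, log2FC 1.27 ± 0.16 (SE), adjusted p = 1.48e-06). The peptide transporter TAP1 turned direction, at 57.1, 57.4 and 57.0 CPM against 38.3, 40.1 and 40.2 CPM with etoposide (log2FC -0.53 ± 0.08 (SE), adjusted p = 1.89e-05) and a log2 fold change of 0.51 in control cells. Of 49 interferon-stimulated genes 41 were tested, with 17 higher and 8 lower (median 0.24), and 21 higher and 5 lower in control cells. HERC6 (2.18 to 7.81 CPM, log2FC 1.83 ± 0.23 (SE), adjusted p = 1.42e-06), HERC5 (18.2 to 47.3 CPM), DDX60 (2.98 to 7.71 CPM) and the antiviral synthetase gene OASL (2.42 to 5.77 CPM) had the largest log2 fold changes among them. The chromosome 4 block of HERC5 and HERC6 had a median of 0.61 and that of DDX60 0.57, while that of OASL had 0.07. IFI6 (60.9 to 35.3 CPM, log2FC -0.79 ± 0.11 (SE), adjusted p = 7.41e-06) and IRF1 (69.9 to 49.9 CPM) were lower. So were the DNA sensor CGAS (2.73 to 0.826 CPM, log2FC -1.71 ± 0.45 (SE), adjusted p = 0.00343) and its adaptor STING1 (2.69 to 0.749 CPM, log2FC -1.83 ± 0.39 (SE), adjusted p = 0.000612), both close to the limit of detection. Of 13 immune ligands 6 were higher and 1 lower. CD70, the ligand of CD27 on lymphocytes, stood at 20.3, 26.8 and 23.4 CPM against 155, 132 and 151 CPM (log2FC 2.63 ± 0.10 (SE), adjusted p = 1.13e-13). TNFSF9 was higher (18.7 to 51.8 CPM, log2FC 1.46 ± 0.16 (SE), adjusted p = 4.00e-07), as was MICB (27.9 to 46.1 CPM, log2FC 0.72 ± 0.12 (SE), adjusted p = 3.20e-05). ULBP1, like MICB a ligand of the NKG2D receptor, was lower (93.0 to 38.4 CPM, log2FC -1.27 ± 0.09 (SE), adjusted p = 7.73e-10).

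Most genes of the stress program driven by ATF4 were lower. Of 16 genes of this arm 4 were higher, 11 lower and 1 not called (median -0.46). ATF4, its transcription factor, stood at 669, 758 and 677 CPM in WT and 273, 267 and 358 CPM in DAXX_KO (log2FC -1.23 ± 0.09 (SE), adjusted p = 2.47e-09), with the same log2 fold change of -1.23 in control cells. The chromosome 22 block that holds ATF4 had a median of -0.74. ATF3, which both ATF4 and p53 can induce, stood at 188, 187 and 179 CPM against 49.5, 59.2 and 53.1 CPM (log2FC -1.78 ± 0.08 (SE), adjusted p = 1.66e-12). Its interaction was called (-0.95, adjusted p = 0.000415). The serine synthesis genes PHGDH (125 to 59.9 CPM) and PSAT1 (139 to 63.6 CPM) and the cystine transporter SLC7A11 (46.7 to 27.0 CPM) were lower, while TRIB3 (57.1 to 95.4 CPM, log2FC 0.74 ± 0.09 (SE), adjusted p = 1.28e-06), CEBPB and ATF5 were higher. Of 12 genes listed as chaperones of the endoplasmic reticulum 3 were higher and 4 lower. XBP1, a transcription factor listed with them and not itself a chaperone, was the lowest (110.5 to 48.3 CPM, log2FC -1.19 ± 0.09 (SE), adjusted p = 3.75e-09). Its block had a median of -0.60. The chaperone HSPA5 was not called (2999 to 2786 CPM, adjusted p = 0.139). Immediate early genes were mixed, with 9 of 24 higher and 7 lower. JUND (74.0 to 144 CPM) was higher, EGR1 was called higher (10.2 to 13.9 CPM, log2FC 0.47 ± 0.18 (SE), adjusted p = 0.0371) but not without WT library 1 (log2FC 0.38), WT library 2 (0.40), DAXX_KO library 2 (0.23) or DAXX_KO library 3 (0.49). Of the others, FOSL1 (67.4 to 39.2 CPM) and DUSP1 (24.7 to 13.4 CPM) were lower and JUN was not called (adjusted p = 0.214).

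Most matrix and adhesion genes differed: of 49 tested, 24 were higher, 19 lower and 6 not called (median 0.32), and their summed level was 7843 CPM in WT and 7121 CPM in DAXX_KO. The thrombospondin genes went opposite ways. THBS1 stood at 39.9, 40.9 and 43.4 CPM in WT and 1.71, 2.18 and 2.02 CPM in DAXX_KO (log2FC -4.38 ± 0.14 (SE), adjusted p = 2.32e-14). THBS2 stood at 1.00, 2.62 and 0.945 CPM against 30.3, 32.7 and 34.7 CPM (log2FC 4.38 ± 0.22 (SE), adjusted p = 8.89e-12), each with no overlap. Without WT library 2 the log2 fold change of THBS2 was 5.04. The plasminogen activator gene PLAU stood at 379.8, 346 and 374 CPM against 25.8, 41.4 and 17.5 CPM (log2FC -3.69 ± 0.17 (SE), adjusted p = 3.15e-12). TIMP3, an inhibitor of metalloproteinases held in the matrix, stood at 170.3, 165 and 157 CPM against 48.5, 39.0 and 45.2 CPM (log2FC -1.89 ± 0.09 (SE), adjusted p = 1.71e-12), with a far smaller difference in control cells (-0.30, interaction -1.60, adjusted p = 7.38e-08). Its relatives TIMP1 (368 to 526 CPM) and TIMP2 (135 to 341 CPM) and the protease MMP14 (47.5 to 169 CPM, log2FC 1.83 ± 0.10 (SE), adjusted p = 1.18e-11) were higher. Fibronectin, FN1, rose (201 to 578 CPM, log2FC 1.52 ± 0.07 (SE), adjusted p = 3.15e-12). So did the integrin subunit ITGB1 (142 to 360.1 CPM, log2FC 1.34 ± 0.06 (SE), adjusted p = 6.47e-13), N-cadherin CDH2 (15.9 to 34.4 CPM), the contractile gene MYL9 (40.5 to 187 CPM, log2FC 2.21 ± 0.17 (SE), adjusted p = 3.86e-09) and the mesenchymal factors TWIST1 (15.4 to 40.2 CPM) and PRRX1 (8.37 to 22.8 CPM). Versican, VCAN (378 to 154 CPM), the fibulin gene FBLN1 (41.1 to 3.29 CPM), ITGA2 (85.4 to 27.2 CPM) and vimentin, VIM (2599 to 1616 CPM), were lower. The mesenchymal markers were thus mixed. Of the others listed, CDH11 was lower (6.81 to 1.26 CPM), and CD44 (359 to 366 CPM) and SPARC (164 to 149 CPM) were not called. SNAI2 (15.3 to 25.0 CPM) and ZEB1 (26.0 to 36.1 CPM) were higher. LUM rose from near the floor (0.364 to 8.07 CPM, log2 fold change 4.37, or 5.27 without WT library 2), and for CDH6 WT was at least 11.2-fold higher. Of 17 collagen genes 8 were higher and 5 lower. COL6A1 stood at 325, 320.3 and 327 CPM against 725, 620.4 and 724 CPM (log2FC 1.09 ± 0.07 (SE), adjusted p = 7.36e-11). COL5A1 was higher (33.5 to 95.2 CPM, log2FC 1.505 ± 0.10 (SE), adjusted p = 5.76e-10) and COL1A1 lower (199.7 to 115 CPM, log2FC -0.80 ± 0.10 (SE), adjusted p = 1.70e-06). Among 17 receptor tyrosine kinases, FGFR1 was higher (49.2 to 121 CPM, log2FC 1.30 ± 0.07 (SE), adjusted p = 2.92e-11). EPHA2 (47.2 to 8.95 CPM, log2FC -2.37 ± 0.24 (SE), adjusted p = 1.02e-07, or -3.03 without DAXX_KO library 2) and EGFR (67.8 to 45.2 CPM, log2FC -0.58 ± 0.08 (SE), adjusted p = 2.27e-06) were lower.

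Of 27 cholesterol genes 12 were higher and 4 lower (median 0.22). The sterol regulators SREBF1 (9.15 to 21.8 CPM, log2FC 1.25 ± 0.14 (SE), adjusted p = 3.90e-07) and INSIG1 (45.6 to 94.0 CPM) and the synthesis enzyme LSS (32.7 to 70.4 CPM, log2FC 1.10 ± 0.09 (SE), adjusted p = 3.02e-09) were higher. The sterol reductase gene TM7SF2 was lower (23.5 to 7.12 CPM, log2FC -1.72 ± 0.17 (SE), adjusted p = 7.25e-08) with no called difference in control cells (0.39). Of 23 glycolysis genes 10 were higher and 10 lower. The abundant enzymes GAPDH, ENO1, PKM (2559 to 1890.0 CPM) and LDHA (1201 to 774 CPM, log2FC -0.63 ± 0.07 (SE), adjusted p = 6.33e-07) were lower, as was the glucose transporter SLC2A1 (58.5 to 24.2 CPM, log2FC -1.28 ± 0.10 (SE), adjusted p = 6.10e-09). The transporter SLC2A3 (43.7 to 74.6 CPM) and the hexokinase HK2 (15.7 to 25.6 CPM) were higher. The summed level of the 23 genes was 21979.8 CPM in WT and 17478 CPM in DAXX_KO.

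Of 25 genes of the BCL2 family and the caspases 7 were higher and 11 lower. The survival gene BCL2 was higher from a low level (0.594 to 2.93 CPM, log2FC 2.28 ± 0.37 (SE), adjusted p = 3.05e-05). MCL1 was lower (286 to 190.1 CPM, log2FC -0.59 ± 0.08 (SE), adjusted p = 2.52e-06). The initiator caspases CASP9 (8.92 to 5.59 CPM) and CASP10 (17.5 to 7.71 CPM, log2FC -1.19 ± 0.17 (SE), adjusted p = 8.86e-06) were lower. Of 13 nuclear lamina genes 4 were higher and 3 lower. LMNA, lamin A/C, stood at 862, 797 and 862 CPM against 355, 490.2 and 356 CPM (log2FC -1.07 ± 0.11 (SE), adjusted p = 8.09e-08). LMNB1, whose loss is known in senescence, was lower too (3.07 to 1.39 CPM, log2FC -1.14 ± 0.26 (SE), adjusted p = 0.00102). Of 14 imprinted genes 6 were higher and 6 lower. PEG10 stood at 229.6, 231 and 222 CPM against 22.4, 21.1 and 21.8 CPM (log2FC -3.38 ± 0.08 (SE), adjusted p = 3.20e-16). PHLDA2, maternally expressed, stood at 198, 185 and 202 CPM against 496, 408 and 475 CPM (log2FC 1.24 ± 0.09 (SE), adjusted p = 7.67e-10) but was lower in control cells (-0.45). IGF2 was lower (4.65 to 0.456 CPM) and PLAGL1 higher (1.42 to 10.3 CPM, log2FC 2.84 ± 0.28 (SE), adjusted p = 6.10e-08). Of 9 tested neural and glial markers 2 were higher, 4 lower and 3 not called (median -0.40). MAP2 was higher (7.66 to 40.9 CPM, log2FC 2.41 ± 0.11 (SE), adjusted p = 1.57e-12), NES, nestin of neural precursors, was higher (24.6 to 37.9 CPM) and SOX9 (45.3 to 28.6 CPM, log2FC -0.67 ± 0.12 (SE), adjusted p = 7.48e-05, block median -0.60), SYP (6.97 to 3.58 CPM) and ALDH1L1 (50.4 to 34.2 CPM) were among the lower ones. Few clustered protocadherins (9 of 38) and germline genes (5 of 26) were expressed enough to test. Of these, 4 and 2 were higher and 0 were lower by edgeR at an adjusted p below 0.05. The tested protocadherins summed to 15.8 CPM in WT and 45.3 CPM in DAXX_KO, and the tested germline genes to 16.2 and 26.9 CPM. Genes this low in WT can pass the filter through the knockout libraries alone, so the lack of lower calls is not informative.

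**Figure D4:**
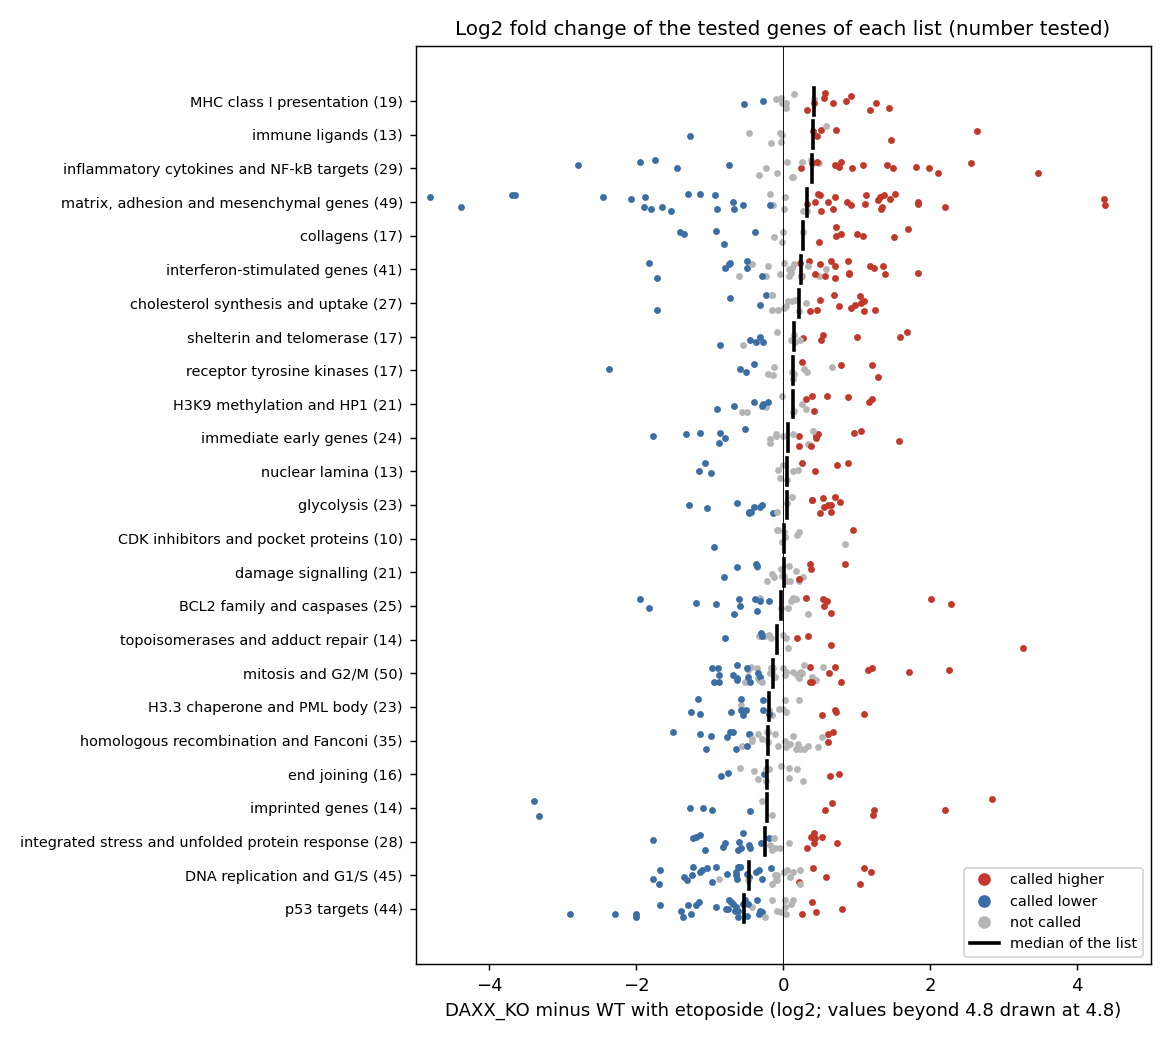
Log2 fold change of DAXX_KO minus WT with etoposide for every tested gene of the gene lists with 10 or more tested members (number tested in brackets), colored by whether the gene was called higher, called lower or not called, with the list median as a bar; points beyond 4.8 are drawn at 4.8. The p53 targets have the lowest median (-0.53) and MHC class I presentation the highest (0.41).

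The following genes had some of the largest interactions. The water channel gene AQP3 stood at 19.1, 24.6 and 23.2 CPM in WT and 5.12, 7.66 and 3.25 CPM in DAXX_KO with etoposide (log2FC -2.05 ± 0.23 (SE), adjusted p = 3.32e-07), yet was higher in the knockout in control cells (1.79, interaction -3.84, adjusted p = 1.61e-05). DEPP1, a FOXO target, was lower as well, at 11.9, 14.997 and 11.3 CPM against 0.731, 2.49 and 1.68 CPM (log2FC -2.93 ± 0.28 (SE), adjusted p = 5.38e-08), with no called difference in control cells (0.34). DPH1, which makes diphthamide on a translation factor, went the other way, at 5.27, 4.88 and 2.57 CPM against 14.4, 10.05 and 12.8 CPM (log2FC 1.53 ± 0.25 (SE), adjusted p = 3.52e-05) and -1.47 in control cells. RAB43, whose reads can be shared with an overlapping gene, was listed at 0 in 2 of 3 WT libraries and was not called by DESeq2, so no fold change is given. For SERPINB2 and RUNX1T1 the fitted log2 fold change was less negative with etoposide (-3.21 and -5.31) than in control cells (-5.60 and -8.50). Where knockout counts are near the floor, such fitted values are no measure of size. The RUNX1T1 value with etoposide was -6.14 without DAXX_KO library 3. Of other genes that the study's text names, RTN1 (2.18 to 12.004 CPM), MRAS (9.82 to 34.2 CPM), METTL7B (8.28 to 15.6 CPM) and EDF1 (434 to 754 CPM) were higher and WDR43 was lower (222 to 138 CPM). The chromosome 9 block of EDF1 had a median of 1.10, above the log2FC of 0.79 of EDF1 itself. USP2 was not called (3.36 to 3.16 CPM, adjusted p = 0.854). The study names USP2 for a reduced response to etoposide, a measure other than the level compared here. ARHGAP6 was too low to test.

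Differences were also ordered along chromosomes. In 247 blocks of about 60 consecutive tested genes, the median log2 fold change was 0.3 or more in 36 blocks and -0.3 or less in 23, and 51 of these 59 were beyond the same limit with the same sign in control cells. Blocks with a raised median lay on chromosomes 4, 7, 9, 10, 20 and X among others, and the highest was at the end of the long arm of chromosome 9 (hg19 chr9:138370925-140764468), where 48 of 61 genes were called higher, 2 lower, and the median was 1.10. Blocks with a lowered median covered the long arm of chromosome 17 from position 46147414 to its end and chromosome 22 from 25960642 to its end, with medians of -0.45 to -0.61 and of -0.51 to -0.74. In ATRX_KO, relative to its own WT libraries, the same blocks had medians of -0.58 to -0.38 on chromosome 17 and of -0.74 to -0.42 on chromosome 22. Other lowered blocks included neighboring ones on chromosome 1 from 201433406 to 222763275, with medians of -0.64 and -0.68, and of -0.54 and -0.58 in ATRX_KO. BTG2, ATF3 and DTL lay there, PPM1D and FDXR in blocks with medians of -0.60, and TIMP3 in one with -0.69. Relative to their blocks, the log2FC of these genes ran from -0.65 (PPM1D) to -1.40 (FDXR). On chromosome 17 between 58254688 and 66547460, 41 of 61 genes were lower and 0 were higher. Together the 59 blocks held 3553 genes, of which 2295 were called. Relative to its block, the median of the p53 list moved from -0.53 to -0.51, that of the replication list from -0.46 to -0.37 and that of the MHC class I list from 0.41 to 0.32. Other lists lost most of their median, with mitosis going from -0.14 to 0.000375, homologous recombination from -0.21 to -0.05, end joining from -0.21 to -0.02 and the neural and glial markers from -0.40 to -0.06. The collagens went from 0.27 to 0.13 and the matrix list from 0.32 to 0.17. Of 265 called genes chosen for naming, 34 kept under 50% of their log2FC relative to their block or changed sign, among them TIMP1, COL1A1, LGALS1, ATF4, POT1, EDF1, CCNG1, AURKA, MCL1, EME1, BRIP1, INSIG1 and EXO1.

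**Figure D5:**
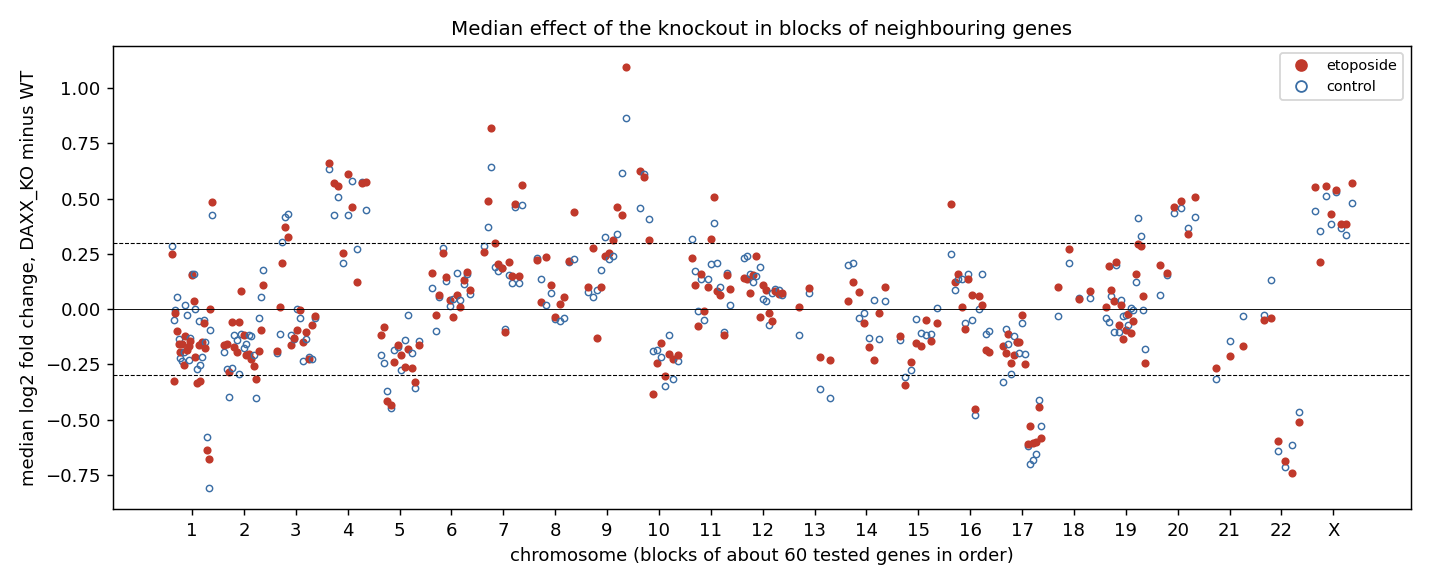
Median log2 fold change of DAXX_KO minus WT in blocks of about 60 neighboring tested genes, in chromosomal order, with etoposide (filled) and in control cells (open); dashed lines mark 0.3 and -0.3. The filled and open points follow each other, with raised blocks on chromosomes 4, 20 and X and lowered blocks on chromosomes 1, 17 and 22 among others.

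ATRX_KO cells, compared with their own WT libraries under etoposide, shared part of this state. Of the 15039 genes tested in both, 1860 were higher in both knockouts (45% of those higher in DAXX_KO and 52.3% of those higher in ATRX_KO) and 1931 were lower in both (50.5% and 53.5%), while 486 were higher in DAXX_KO and lower in ATRX_KO and 369 the reverse. The 2 effects differed by their own test for 5752 of 16674 genes (34.5%). Most p53 targets were lower in ATRX_KO too, with 0 of the list higher and 32 lower in ATRX_KO by edgeR (background 45.9% called, 23% higher and 22.9% lower). Some cell cycle regulators and collagens went opposite ways. MYBL2 was lower in ATRX_KO (log2FC -0.77, difference 2.47, adjusted p = 5.89e-12), as was E2F1 (-0.63, difference 1.81, adjusted p = 3.71e-12). COL6A1 (-1.06, difference 2.13, adjusted p = 4.48e-15) and COL5A1 (-1.03, difference 2.52, adjusted p = 2.64e-10) were lower there too. Of the 17 collagen genes, 12 were lower in ATRX_KO and 1 was higher. Neighboring genes shared part of these shifts. The block of COL6A1 on chromosome 21 had a median of -0.73 in ATRX_KO and -0.17 in DAXX_KO. The blocks of MYBL2, E2F1 and COL5A1 had medians of 0.49, 0.46 and 0.43 in DAXX_KO and of -0.03, 0.03 and 0.05 in ATRX_KO. Between the 2 sets of etoposide treated WT libraries themselves 2646 of 16674 genes differed.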

How the data were processed

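RNA was sequenced by QuantSeq 3' mRNA libraries of U87-T cells. The authors aligned reads with STAR to hg19 and deposited RSEM estimated counts per Ensembl GRCh37 gene, which are whole numbers in the table and were used as deposited; the RSEM version differs between the sources used here. Gene symbols matched 55501 of 57736 gene IDs.

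The 12 libraries of the DAXX series (4 groups of 3) were fitted together with edgeR 4.0.16 (R 4.3.3) by the quasi-likelihood test with TMM factors, after filtering with filterByExpr (min.count 10, min.total.count 15). Genes were called at a Benjamini-Hochberg adjusted p below 0.05. The ATRX series was fitted separately, and differences between the knockouts over all 24 libraries. Scripts were tested on simulated data.

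The study describes its experiments as done in biological duplicates or triplicates without detailing these libraries, and p-values measure the spread between them. Totals of the 6 etoposide treated libraries were 7736867 to 9505233 counts, and fold bounds cover counting error only. Fold bounds use a floor of 3 counts per library.

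The libraries were chosen by their labels, and the gene lists were written with earlier results of these data known. Named genes were DAXX and ATRX, those the study's text names, the 10 largest and 10 smallest log2 fold changes at 10 CPM or more with separate groups, the 3 largest and smallest per list, the 5 largest gains and losses in CPM and the 5 largest and smallest interactions, 205 in all, from which the text takes a part. A further 83 list members or markers were picked after their values were seen. CDH11, SPARC, SNAI2 and ZEB1 are named besides, to complete the list of mesenchymal markers. Some genes are not reported here.

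Promoter sequences are from RefSeq (GRCh38.p14). Alternatives were DESeq2 1.42.0, other scaling and filters, other sets of libraries, a replicate block and leaving out each library.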

Additional observations from a re-analysis of the deposited data

Results flagged for a closer look

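The effect of the knockout differed between etoposide treated and control cells for 2160 of 15247 genes by the interaction test, and between DAXX_KO and ATRX_KO cells under etoposide for 5752 of 16674 genes by the test of that difference. Among the named genes, those given here were called in both groups with opposite signs and with the difference itself called. With etoposide against control cells, the log2 fold changes of DAXX_KO minus WT were opposite for IL11 (0.94 against -0.89), TNFRSF10A (-2.29 against 1.20), DPH1 (1.53 against -1.47), CCNG1 (-0.33 against 0.42), EGR1 (0.47 against -0.56), EREG (-1.44 against 0.44), NES (0.62 against -0.35), IGF1R (-0.50 against 0.93), CCNB2 (0.70 against -0.23), HK2 (0.71 against -0.35), ATRIP (0.37 against -0.29), TP53INP1 (-0.70 against 0.96), AQP3 (-2.05 against 1.79), RRM1 (0.59 against -0.17), TAP1 (-0.53 against 0.51), CXCL8 (2.10 against -1.60), UBE2C (1.16 against -0.29) and PHLDA2 (1.24 against -0.45). The adjusted p of the difference ran from 2.48e-09 to 0.0126.

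Under etoposide, the log2 fold changes of DAXX_KO against those of ATRX_KO, each relative to its own WT libraries, were opposite for BAD (0.65 against -0.42), XRCC5 (-0.26 against 0.33), ATRX (0.53 against -1.32), TPX2 (0.62 against -0.32), CLSPN (-0.36 against 0.24), MYBL2 (1.72 against -0.77), E2F1 (1.20 against -0.63), EDF1 (0.79 against -0.45), ENO2 (0.66 against -0.59), FN1 (1.52 against -0.90), LIF (-1.74 against 0.87), COL5A1 (1.505 against -1.03), CASP9 (-0.67 against 0.71), COL6A1 (1.09 against -1.06), ALDH1L1 (-0.56 against 0.34), MKI67 (-0.68 against 0.26), CCNB2 (0.70 against -0.52), ATRIP (0.37 against -0.53), MAD2L1 (0.79 against -0.70), EXO1 (0.68 against -0.79), MAGED4B (-7.02 against 1.42), PPIA (0.83 against -0.27), SERPINB2 (-3.21 against 1.37) and DAXX (-1.13 against 1.01). The adjusted p of the difference ran from 1.90e-15 to 0.00618. The fitted value of MAGED4B is no measure of size, since every DAXX_KO library held at most 3 counts and only the bound of at least 63.1-fold can be given, and in control cells the DAXX_KO libraries held at most 3 counts of CXCL8. For DAXX and ATRX this is the targeted gene of one of the knockouts.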

How the results depend on the processing

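The counts of higher and lower genes moved between 3458 and 4803 and between 3299 and 4076 over the settings that kept all libraries, and between 3846 and 4096 and between 3448 and 3817 when 1 library was left out, so each stayed within 1.5 times the value in the report. With library totals alone 59.3% of the calls were higher, against 52.6% with TMM factors, and the median of all genes rose to 0.0848. Requiring at least 10 counts in every library left 9 cytokine and NF-kB genes higher and 2 lower, since fewer genes were tested. Blocks of 30 and 120 genes put 29.1% and 21% of blocks beyond 0.3, against 23.9%.

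Etoposide treated libraries with the same replicate number did not deviate together across genes (correlations of 0.023, -0.0149 and -0.0257). Such deviations also hold counting noise, so these values do not settle whether the numbers pair the samples. With the replicate block 4139 genes were higher, 3731 lower and 1882 interactions were called.

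Over 3961 pairs of a named gene and a setting, 3843 kept direction and side of the threshold, 82 lost the call, 6 gained one and 30 changed sign. The sign changes were all of genes that were not called, with log2 fold changes by DESeq2 for CD44 (-0.00028995), SESN1 (-0.00448), CDKN1A (-0.00248), CCNB1 (-0.0247) and CHEK2 (-0.0132), with RLE size factors for CD44 (-0.000514), SESN1 (-0.00446), CDKN1A (-0.00247), CCNB1 (-0.0247) and CHEK2 (-0.0149), with no filter on low counts for CCNB1 (-0.0126) and CHEK2 (-0.0049961), with at least 10 counts in every library for SESN1 (-0.00287), CDKN1A (-0.00109), CCNB1 (-0.0228) and CHEK2 (-0.014), with only the 6 etoposide libraries for CCNB1 (-0.0073995) and with the replicate block for CCNB1 (-0.000727). With 1 library left out the log2 fold changes of such genes ranged from -0.13 to 0.12 for CCNB1, -0.00559 to 0.25 for BAX, -0.36 to 0.0266 for CDK1, -0.20 to 0.18 for CHEK2, -0.29 to 0.10 for USP2, -0.0226 to 0.0568 for CD44, -0.0204 to 0.0793 for CDKN1A, -0.67 to 0.30 for IL6 and -0.00544 to 0.10 for PARD6G. The cause of these shifts was not tested. The DAXX_KO cells were 1 clone, and at these depths genes near 3 counts give only bounds.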
